A study of Mus musculus with 8 samples.

Results

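The let-7 family is a group of miRNAs that share the seed of let-7, and 9 of the 375 miRNA assays of the TaqMan card A belong to it: mmu-let-7a, mmu-let-7b, mmu-let-7c, mmu-let-7d, mmu-let-7e, mmu-let-7f, mmu-let-7g, mmu-let-7i and mmu-miR-98, written without the species prefix from here on. The rule that picked the members uses their names and no measured value, and all 9 were measured in every mouse (72 of 72 wells at a threshold cycle of 35 or less). The RNA was total RNA from the ventral part of the lumbar spinal cord, of 4 FVB and 4 MLC/SOD1[G93A] mice. Each mouse was 4 months of age and has 1 card. Both groups have the FVB strain background. The MLC/SOD1[G93A] mice additionally carry mutant SOD1, a gene linked to familial Amyotrophic Lateral Sclerosis, under the Myosin Light Chain promoter. This promoter is specific for muscle, whereas the RNA came from spinal cord, and the comparison addresses whether a transgene expressed in muscle is accompanied by other miRNA levels in the cord.

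A miRNA guides the silencing complex to messenger RNAs that pair with its seed, so members of a seed family can act on largely the same transcripts. let-7 was found as a timing gene in worms, and in vertebrates the mature let-7 miRNAs accumulate as cells leave the cell cycle and differentiate. The RNA-binding protein LIN28 blocks the processing of let-7 precursors in stem and progenitor cells, and let-7 in turn represses LIN28, HMGA2 and RAS messages. Adult nervous tissue is rich in let-7.

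The mature sequences of the 9 members are shown because they define the family and because the assays have to tell them apart. They were taken from RefSeq for the mouse assembly GRCm38.p6, are 22 bases long and run 5′ to 3′, with the seed (bases 2 to 8) in capitals.
let-7a: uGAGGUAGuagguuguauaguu
let-7b: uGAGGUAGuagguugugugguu
let-7c: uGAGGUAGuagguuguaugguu
let-7d: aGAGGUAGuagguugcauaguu
let-7e: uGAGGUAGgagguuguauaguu
let-7f: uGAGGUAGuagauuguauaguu
let-7g: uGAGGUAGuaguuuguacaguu
let-7i: uGAGGUAGuaguuugugcuguu
miR-98: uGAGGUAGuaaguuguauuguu

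All 9 carry the same seed, GAGGUAG, and differ only outside it. Counted from 1 at the 5′ end and with the base of let-7a first, let-7c differs from let-7a by A19G, let-7e by U9G and let-7f by G12A. Members with 2 differences from let-7a are let-7b (A17G and A19G), let-7d (U1A and U16C), let-7g (G12U and U18C) and miR-98 (G11A and A19U). let-7i stands farthest from let-7a, with G12U, A17G, U18C and A19U. Whether an assay also detects a member that differs by 1 base was not tested.

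The genes are scattered over the mouse genome, and several lie in pairs or clusters. In GRCm38.p6 the mature let-7e lies at chr17:17830366-17830387 on the plus strand, within the span of the protein-coding gene Spaca6, and let-7g at chr9:106178846-106178867 on the plus strand, within that of Wdr82. let-7i lies at chr10:122985698-122985719 on the minus strand, outside the span of other annotated genes. let-7c has 2 copies on plus strands, at chr16:77599672-77599693 and at chr15:85706616-85706637, the latter next to let-7b (chr15:85707325-85707346) and within the long noncoding RNA Lncppara. let-7d (chr13:48536078-48536099), a copy of let-7f and a copy of let-7a sit together on the minus strand of chromosome 13. The other copy of let-7f shares the span of Huwe1 on the X chromosome with miR-98 (chrX:151913229-151913250). The annotation used gives gene spans, so exon or intron is not stated here.

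Each assay gives a threshold cycle (Ct), and each cycle less corresponds to about a doubling in miRNA. A pair of mice stood apart. The mean Ct of the 4 wells of U6 small nuclear RNA, a reference of the study, was 17.45 in FVB 1a and 16.88 in MLC/SOD1[G93A] 7a. It was between 17.96 and 18.50 in the other 6 mice. The U6 wells of a mouse spread over 2.14 cycles in 7a, 1.97 in 8a and 1.05 in 6a, and over 0.39 to 0.78 cycles in the other 5 mice. The plant miRNA that serves as a negative control gave a Ct of 29.85 in 7a and no Ct in the other 7 mice. The global mean, a normalization that the paper also names, is here the Ct averaged over the 190 miRNAs with a value in all 8 mice. It ran from 28.02 to 29.00 and was highest in FVB 1a. miRNAs of neurons (4 of 4 listed), oligodendrocytes (3 of 3) and the caudal Hox clusters (3 of 3) were measured in all 8 mice. So were those of muscle (3 of 3) and endothelium (2 of 2), so detection alone does not identify the tissue. In bulk tissue, fewer cells of a type and less RNA per cell cannot be told apart.

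let-7g and let-7e gave the strongest signals of the family, and miR-98 the weakest. The Ct of let-7g was 26.28, 25.44, 24.95 and 25.11 in FVB mice 1a to 4a and 25.89, 25.61, 25.34 and 25.12 in MLC/SOD1[G93A] mice 5a to 8a. For let-7e the Ct was 27.04, 25.36, 25.45 and 25.22 in FVB and 25.62, 25.98, 24.62 and 25.14 in MLC/SOD1[G93A] mice. FVB 1a had the highest Ct of both members, and the groups overlapped. Averaged over the 8 mice, let-7g had a Ct of 25.47 ± 0.45 (SD, n = 8) and ranked 26 of the 190 miRNAs measured in all mice. let-7e followed at 25.55 ± 0.72 (SD, n = 8, rank 30), with ranks from 17 to 45 in single mice.

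let-7i came next at a mean Ct of 26.16 (rank 40), followed by let-7c at 27.40 (rank 63). let-7d (28.29, rank 81), let-7b (28.37, rank 84), let-7a (28.40, rank 85) and let-7f (28.88, rank 97) lay close together in the middle of the card. miR-98, with a mean Ct of 31.89, ranked 173. The 9 members thus reached from the upper part of the card almost to its lower end. Assays differ in efficiency, so this order of signals is only approximately that of the molecules.

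**Figure D1:**
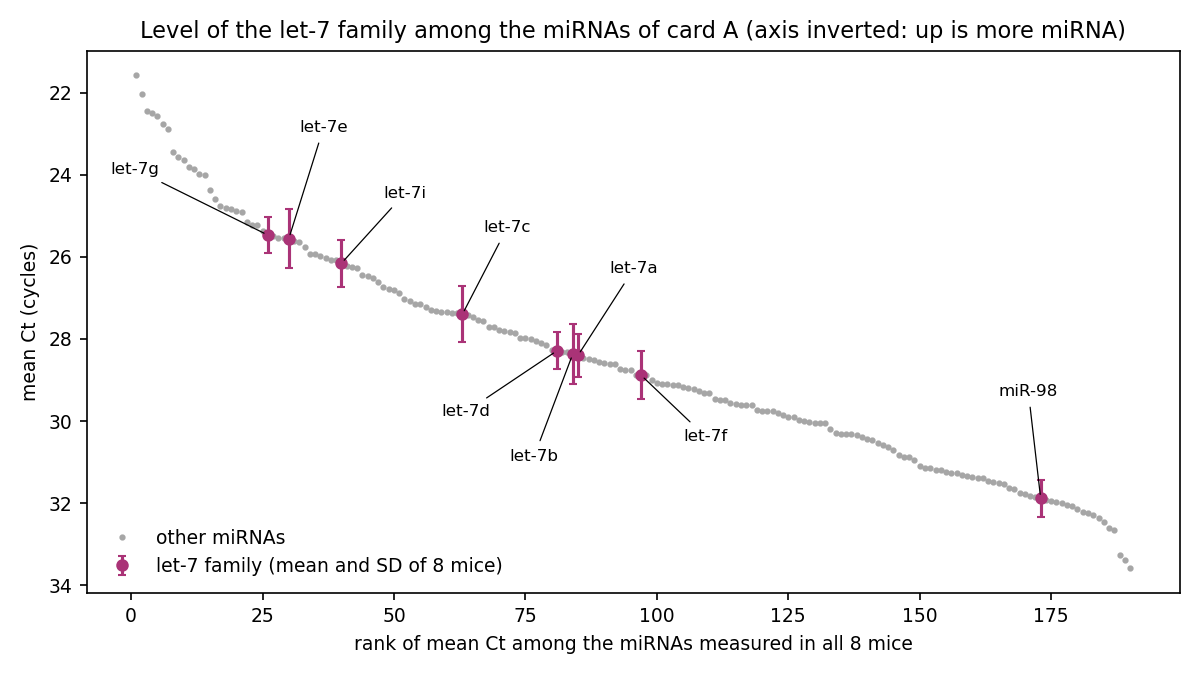
Mean Ct in cycles (vertical axis, inverted) against rank for the 190 miRNAs measured in all 8 mice, with let-7 members as large points with the SD over the 8 mice and the other miRNAs as grey points. let-7g, let-7e and let-7i lie at ranks 26, 30 and 40, 5 members lie between ranks 63 and 97, and miR-98 lies at rank 173.

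Neighbours in this order were compared within each mouse, which needs no reference. let-7i was above let-7c in 8 of 8 mice, by 1.24 ± 0.17 cycles (SD, n = 8), and let-7c above let-7d in 8 of 8, by 0.89 ± 0.31 cycles. let-7f was above miR-98 in 8 of 8 mice, by 3.00 ± 0.61 cycles. Those 3 steps were larger than their spread. Between let-7g and let-7e the difference was 0.09 ± 0.47 cycles and the order held in 5 of 8 mice, so these neighbours did not differ beyond their spread. The same applied to let-7d and let-7b (0.08 ± 0.46 cycles, 4 of 8 mice) and to let-7b and let-7a (0.03 ± 0.50 cycles, 3 of 8 mice). The steps from let-7e to let-7i (0.60 ± 0.60 cycles) and from let-7a to let-7f (0.49 ± 0.47 cycles) each held in 7 of 8 mice and were about as large as their SD.

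At a doubling per cycle, let-7g, let-7e and let-7i made up most of the summed let-7 signal of every mouse. let-7g contributed 30.0% ± 3.20 (SD, n = 4) in FVB and 29.1% ± 3.29 (SD, n = 4) in MLC/SOD1[G93A] mice. The share of let-7e was 20.2%, 28.7%, 21.6% and 25.9% in FVB mice 1a to 4a and 31.8%, 26.2%, 45.1% and 28.6% in MLC/SOD1[G93A] mice 5a to 8a. Mouse 7a had the highest let-7e share and the groups overlapped. The mean share of let-7e was 24.1% ± 3.88 in FVB and 32.9% ± 8.45 in MLC/SOD1[G93A] mice, and 28.9% in the latter without 7a. For let-7i it was 20.2% ± 1.71 in FVB and 16.8% ± 3.25 in MLC/SOD1[G93A] mice, with 7a lowest at 12%.

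None of the 9 shares separated the groups. The 2-sided exact permutation p was 0.0857 for let-7e, for let-7i and for let-7c (8.86% ± 1.23 in FVB, 6.84% ± 1.24 in MLC/SOD1[G93A] mice) and between 0.171 and 0.914 for the other 6 members. The smallest p that 4 against 4 mice allow is 0.0286. The shares of a mouse sum to the whole, so they are not independent of each other. let-7c reached at most 9.79% in any mouse, let-7a, let-7b, let-7d and let-7f at most 5.74%, and miR-98 contributed 0.352% ± 0.082 in FVB and 0.370% ± 0.160 in MLC/SOD1[G93A] mice. let-7g, let-7e and let-7i together held 73.4%, 74.4%, 74.5% and 74.8% in the FVB mice and 77.3%, 78.5%, 84.5% and 75.1% in MLC/SOD1[G93A] mice 5a to 8a. These sums did not overlap between the groups, but the trio was taken after the values were seen, and no test is given for it.

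**Figure D2:**
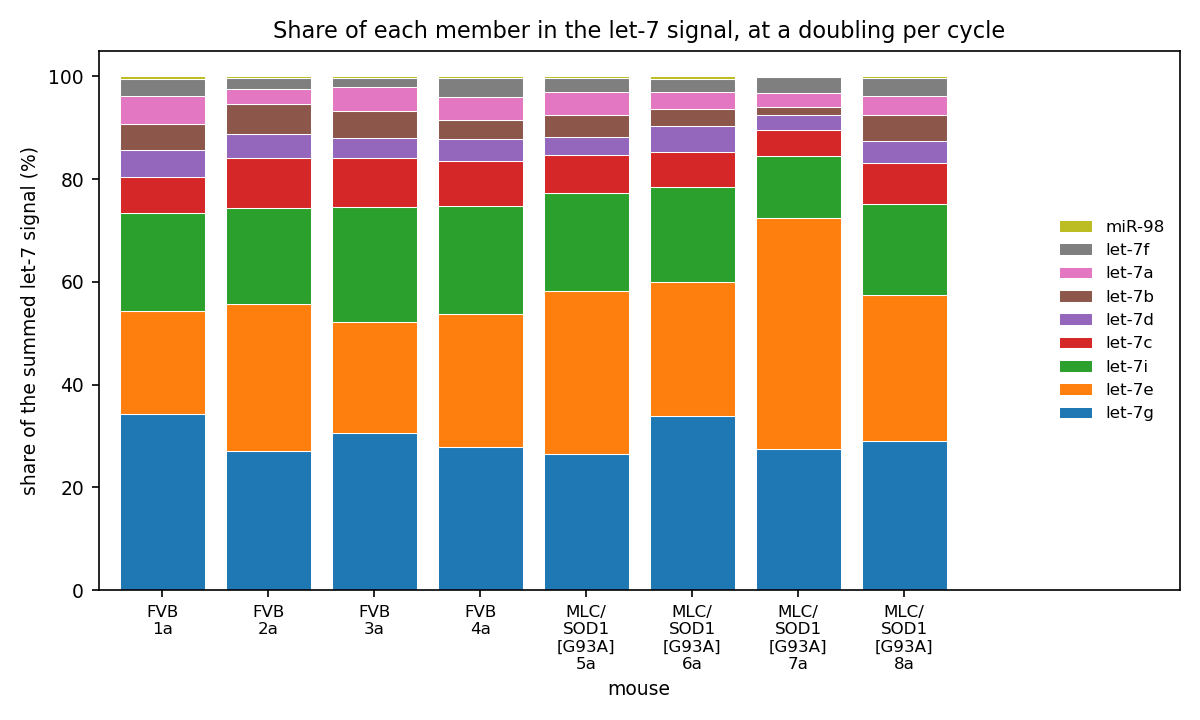
Share of each member in the summed let-7 signal of a mouse in percent (vertical axis), computed from Ct at a doubling per cycle, with 1 stacked bar per mouse and 1 colour per member. let-7g, let-7e and let-7i fill 73.4% to 74.8% of the bars of the FVB mice and 75.1% to 84.5% of those of the MLC/SOD1[G93A] mice, and the let-7e segment is widest in mouse 7a at 45.1%.

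Relative to U6, no let-7 member passed the test between the groups. Log2 expression is the mean U6 Ct of the mouse minus the Ct of the miRNA, so a higher value is more miRNA, and a change is MLC/SOD1[G93A] minus FVB. By limma, 0 of the 9 members had an unadjusted p under 0.05 in either direction. Over all 227 miRNAs tested 2.20% were lower and 0.441% were higher at that threshold, and 0.00% had an adjusted p under 0.05. Read against so low a background, a count of 0 of 9 is not a result about the members. The exact Mann-Whitney test called 0 of all 227 miRNAs and so 0 members. Between the groups 0 members were non-overlapping, against 1.76% of all miRNAs.

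let-7e had the highest log2 change of the family. Its log2 expression relative to U6 was -9.59, -7.16, -7.01 and -7.07 in FVB mice 1a to 4a and -7.12, -7.48, -7.74 and -7.18 in MLC/SOD1[G93A] mice 5a to 8a. FVB 1a was the lowest, and the other 7 mice lay between -7.74 and -7.01. The log2 change of let-7e was 0.33 (SE 0.65, 95% interval -1.03 to 1.68, adjusted p = 0.975 by limma), and it was -0.30 without FVB 1a.

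let-7b had the lowest log2 change, which rested on mouse 7a. Its log2 expression relative to U6 was -11.62, -9.48, -9.06 and -9.93 in FVB mice and -10.05, -10.47, -12.55 and -9.70 in MLC/SOD1[G93A] mice. Mouse 7a was the lowest, FVB 1a came next, and the groups overlapped. The log2 change of let-7b was -0.67 (SE 0.72, 95% interval -2.18 to 0.84, adjusted p = 0.975 by limma). It was -0.05 without 7a, where that of let-7c was lower (-0.07), and -1.20 without FVB 1a.

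let-7g, the member of the strongest signal, had log2 expression values of -8.83, -7.24, -6.51 and -6.96 in FVB and -7.39, -7.11, -8.46 and -7.16 in MLC/SOD1[G93A] mice. FVB 1a and mouse 7a were again the lowest. The log2 change of let-7g was -0.14 (SE 0.63, 95% interval -1.47 to 1.18, adjusted p = 0.975 by limma). let-7i had values of -9.68, -7.78, -6.97 and -7.37 in FVB and -7.86, -7.98, -9.65 and -7.88 in MLC/SOD1[G93A] mice, with a log2 change of -0.39 (SE 0.68, 95% interval -1.82 to 1.03). Both members overlapped between the groups.

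let-7c, of which a copy lies beside let-7b, had log2 expression values of -11.09, -8.71, -8.17 and -8.62 in FVB and -9.24, -9.41, -10.88 and -9.01 in MLC/SOD1[G93A] mice. Apart from FVB 1a, the FVB values lay above all 4 MLC/SOD1[G93A] values. The log2 change of let-7c was -0.49 (SE 0.69, 95% interval -1.94 to 0.97) and was -1.13 without FVB 1a and -0.07 without 7a. Without FVB 1a, let-7c, let-7d and let-7i were lower in MLC/SOD1[G93A] mice with no overlap, which makes 3 of 9 members against 21.1% of all miRNAs, and 0 members had an unadjusted p under 0.05 by limma, against 15.9% of all miRNAs lower.

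The other members changed on the log2 scale by -0.41 (let-7a), -0.31 (let-7d), 0.04 (let-7f) and -0.11 (miR-98), with SEs of 0.62 to 0.68. The log2 expression of let-7a ran from -11.48 to -9.21 in FVB and from -11.84 to -9.96 in MLC/SOD1[G93A] mice, and that of let-7d from -11.53 to -9.53 and from -11.72 to -9.86. For let-7f the ranges were -12.16 to -9.88 and -11.60 to -10.22, and for miR-98 -15.14 to -13.24 and -15.62 to -12.99. The groups overlapped for all 4. In all, 7 members had a negative and 2 a positive change. The median of the members was -0.31, and that of the 227 miRNAs was also -0.31. The 2-sided exact permutation p of the 9 members ran from 0.457 to 0.971. These p-values measure only the spread between the 8 cards.

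**Figure D3:**
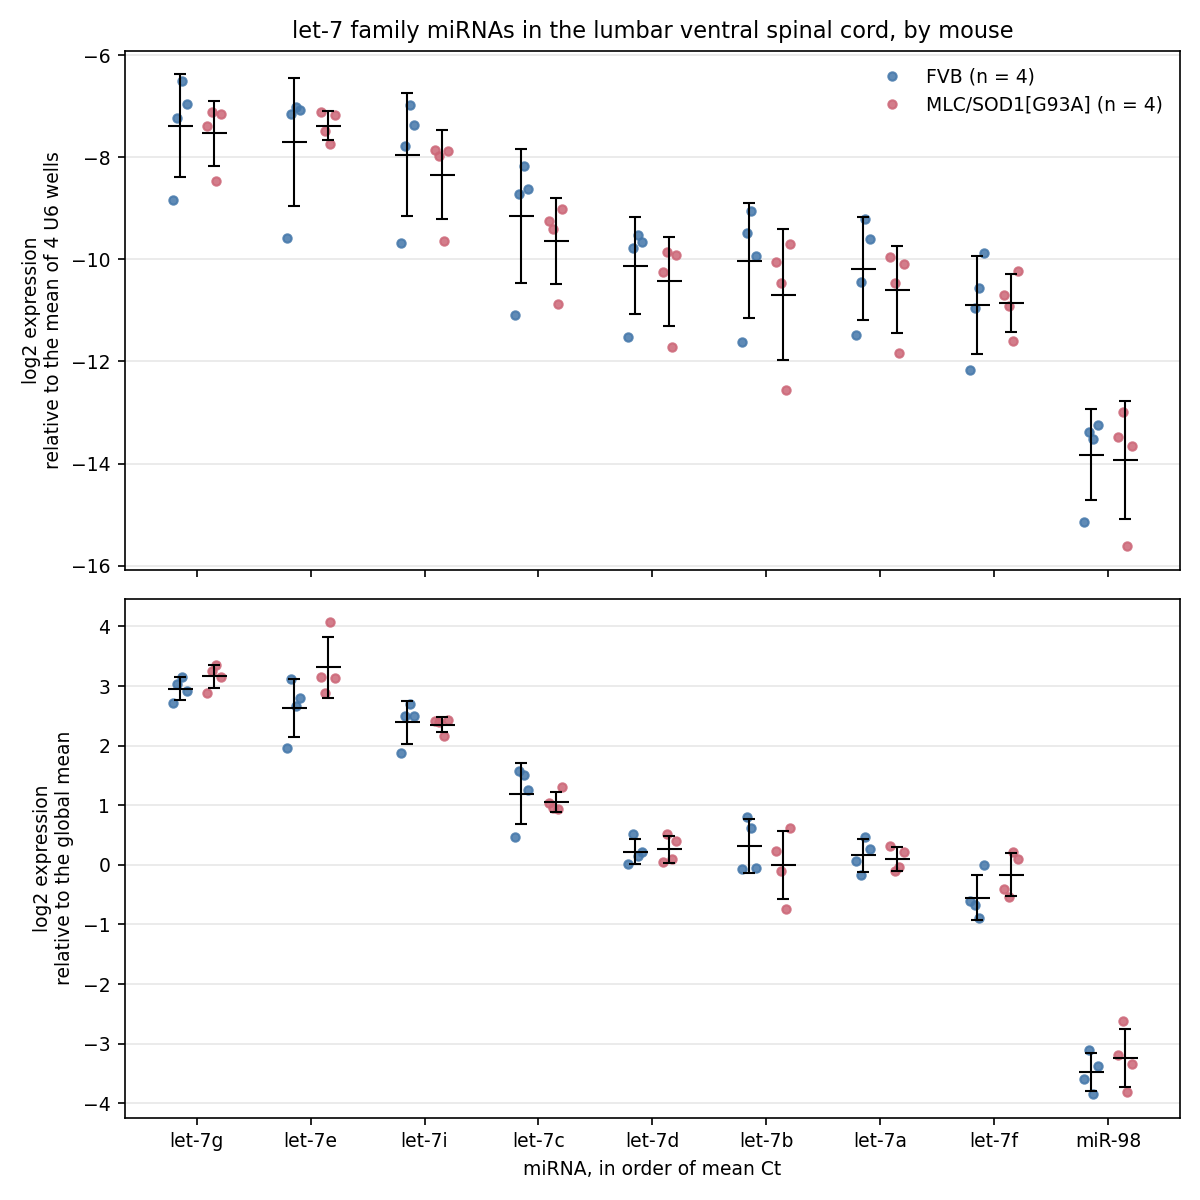
Log2 expression of each let-7 member (horizontal axis, in order of mean Ct) relative to U6 (upper panel) and to the global mean (lower panel), with 1 point per mouse and the mean and SD of 4 mice in black. In the upper panel FVB 1a is the lowest FVB point and 7a the lowest MLC/SOD1[G93A] point of all 9 members, and in the lower panel both groups overlap for every member, let-7e included (1.96 to 3.12 against 2.89 to 4.07).

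Relative to the global mean the mice differed less, and let-7e had the largest change. With it, the median over the 227 miRNAs was 0.04 in place of -0.31. The log2 expression of let-7e relative to the global mean was 1.96, 3.12, 2.66 and 2.80 in FVB mice 1a to 4a and 3.16, 2.89, 4.07 and 3.13 in MLC/SOD1[G93A] mice 5a to 8a. Of the MLC/SOD1[G93A] mice, 3 lay above every FVB mouse, and 6a lay below FVB 2a. The log2 change was 0.68, a mean 1.60-fold that of FVB (SE 0.34, 95% interval -0.08 to 1.44). It did not pass the test, with an adjusted p of 0.572 by limma and a 2-sided exact permutation p of 0.0571. The change of let-7e was 0.43 without mouse 7a and 0.46 without FVB 1a. It was 0.84 without FVB 2a, where it had an unadjusted p of 0.048 by limma (adjusted p = 0.604) and 3.96% of all miRNAs were higher at that threshold.

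let-7f (0.39), miR-98 (0.24), let-7g (0.21) and let-7d (0.04) also had a positive log2 change relative to the global mean, and let-7i (-0.04), let-7a (-0.06), let-7c (-0.14) and let-7b (-0.32) a negative one. Their 95% intervals all included 0, and the adjusted p of the 9 members ran from 0.572 to 0.978 by limma. let-7d, let-7g and miR-98 had the opposite sign relative to U6. The median over the members was 0.04, the same as the median over all miRNAs. By limma, 0 of the 9 members had an unadjusted p under 0.05, against 5.73% of all miRNAs lower and 3.52% higher, and 0.00% had an adjusted p under 0.05. Again 0 members were non-overlapping between the groups, against 4.41% of all miRNAs. Without FVB 1a, let-7i was lower in MLC/SOD1[G93A] mice with no overlap, as were 8.37% of all miRNAs.

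For 7 of the 9 members the sign of the change depended on the reference. let-7e and let-7f were the members with a positive change under all 5. With the small RNA Y1 as the reference, all 9 members had a positive log2 change, from 0.27 (let-7b) to 1.27 (let-7e), and the unadjusted p was under 0.05 for let-7e, let-7f, let-7g and miR-98. With Y1, 29.5% of all miRNAs were higher and 0 were lower at that threshold, and the adjusted p of these 4 members ran from 0.104 to 0.163 by limma. With snoRNA202 the values were close to those with U6, and 28 miRNAs were lower and 1 was higher at an unadjusted p under 0.05. The corresponding numbers were 5 and 1 with U6 and 13 and 8 with the global mean. Averaging snoRNA135, snoRNA202 and Y1 left let-7e with an unadjusted p under 0.05 (log2 change 0.80, SE 0.31, adjusted p = 0.450 by limma), where 6.61% of all miRNAs were higher. A reference shifts all members by the same amount, so the order of the changes, from let-7b to let-7e, is the same with each.

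**Figure D4:**
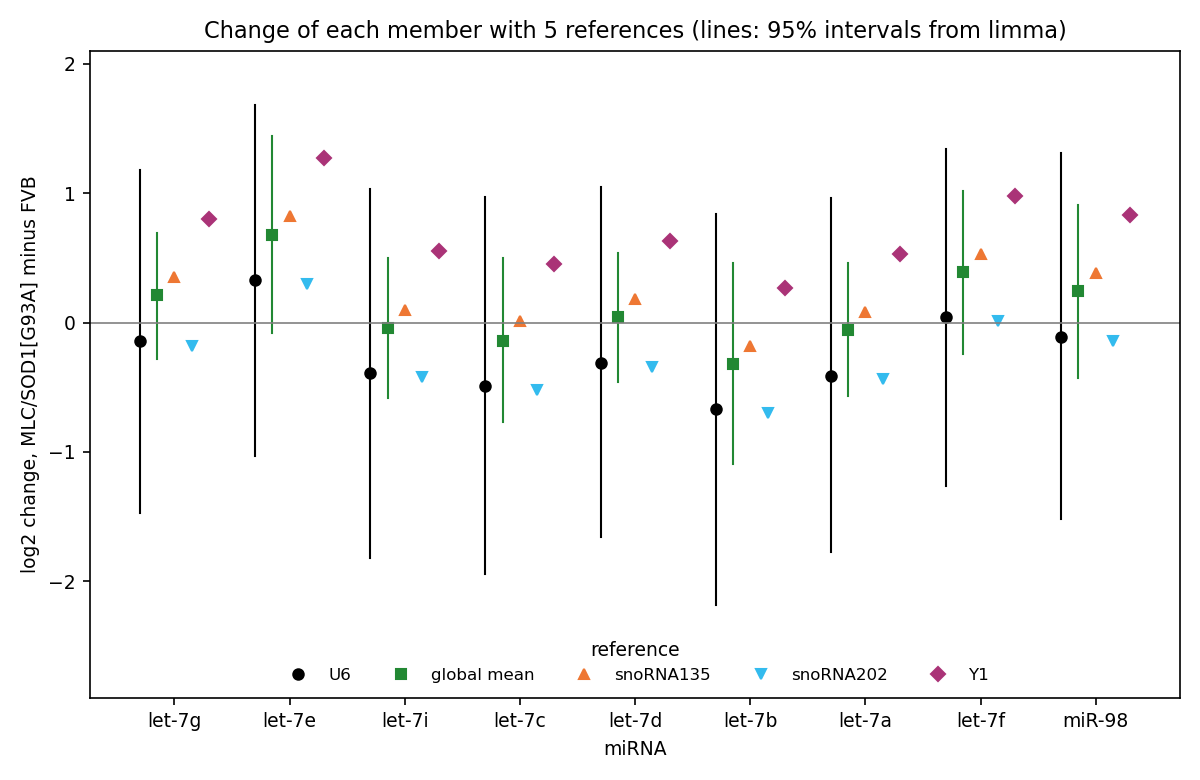
Log2 change of each let-7 member, MLC/SOD1[G93A] minus FVB (vertical axis), with 5 references shown by symbol, and limma 95% intervals as lines for U6 and the global mean. All intervals shown include 0, the points with Y1 are all above 0 (0.27 to 1.27), and those with U6 run from -0.67 to 0.33.

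Ratios between members need no reference, and in these let-7e stood higher against let-7c in MLC/SOD1[G93A] mice. The Ct of let-7c minus that of let-7e was 1.50, 1.55, 1.16 and 1.55 cycles in FVB mice 1a to 4a and 2.12, 1.93, 3.14 and 1.83 cycles in MLC/SOD1[G93A] mice 5a to 8a. All 4 MLC/SOD1[G93A] values lay above all FVB values. The mean difference was 1.44 ± 0.19 cycles (SD, n = 4) in FVB and 2.25 ± 0.60 cycles (SD, n = 4) in MLC/SOD1[G93A] mice, a change of 0.81 cycles. The 2-sided exact permutation p was 0.0286, the smallest the design allows, and 0.582 after adjustment over all 17955 pairs of miRNAs. Without mouse 7a the change was 0.52 cycles. Groups that do not overlap with all mice cannot overlap once a mouse is left out, so overlap was not checked there. Leaving out a single MLC/SOD1[G93A] mouse gave a change of 0.52 to 0.96 cycles, each with an exact permutation p of 0.0286. Leaving out a single FVB mouse gave a change of 0.72 to 0.85 cycles. The exact permutation p was then 0.0571 to 0.0857, above the threshold of 0.05. Without FVB 1a (0.83), 2a (0.85) or 4a (0.85) the change was no smaller than with all mice, and fewer mice allow fewer permutations.

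This was 1 of 36 member pairs without overlap (2.78%), fewer than the 4.91% among all pairs of miRNAs measured in all mice, so the count is not a result about the family. In the other pairs with let-7e, the change in favour of let-7e was 1.0 cycles against let-7b (2-sided exact permutation p = 0.0571), 0.73 against let-7a (p = 0.143 in the same exact test) and 0.72 against let-7i (exact p = 0.0571). It was 0.64 against let-7d, 0.47 against let-7g, 0.44 against miR-98 and 0.29 against let-7f, with exact permutation p from 0.171 to 0.457. Much of this came from mouse 7a. Without it the change in favour of let-7e was 0.50 cycles against let-7b, 0.44 against let-7a, 0.40 against let-7i, 0.33 against let-7d, 0.28 against let-7g and 0.16 against let-7f, and against miR-98 it turned to 0.01 cycles the other way. The 8 pairs share the let-7e assay and are not independent.

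Over all 8 mice the steadiest ratio was that of let-7c to let-7i, which differed by 1.24 cycles with an SD of 0.17, and the widest that of let-7b to let-7e, with an SD of 0.89. Both ranks changed without mouse 7a, where let-7d to let-7g was steadiest (SD 0.15), let-7b to miR-98 widest (0.61) and let-7b to let-7e had an SD of 0.41. Over the 36 member pairs the median SD was 0.47 cycles, against 0.68 for all pairs. These sets of pairs were not matched for Ct, so the difference is not a result about the family. Likeness in sequence did not order the pairs. The median SD was 0.425 cycles for the 4 pairs that differ by 1 base, 0.485 for the 10 pairs with 2 differences, 0.590 for the 11 with 3 and 0.440 for the 9 with 4. let-7a and let-7e, which differ only by U9G, had an SD of 0.68, whereas let-7d and let-7i, with 6 differences, had 0.25. Pairs share members and mice, so these medians are given as a description.

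**Figure D5:**
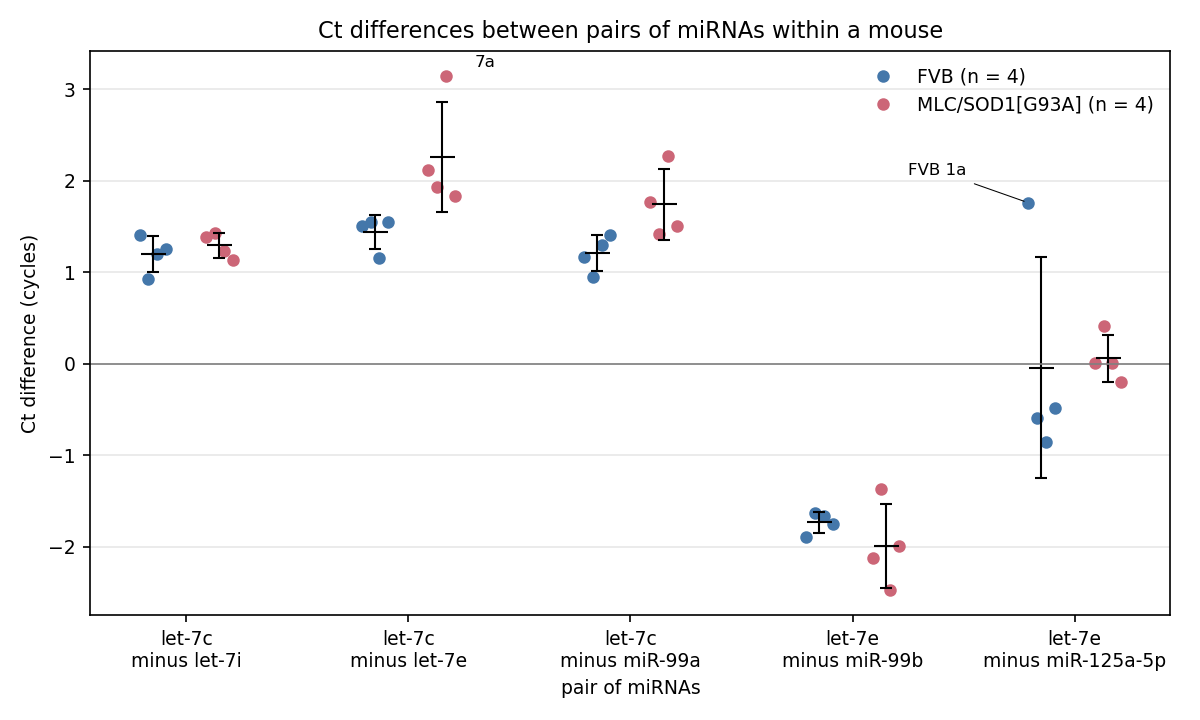
Ct differences in cycles (vertical axis) between 5 pairs of miRNAs within each mouse, with 1 point per mouse and the mean and SD of 4 mice in black. let-7c minus let-7i spreads least (SD 0.17 over the 8 mice), let-7c minus let-7e and let-7c minus miR-99a do not overlap between the groups, and let-7e minus miR-125a-5p holds FVB 1a apart at 1.76.

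Several let-7 genes are transcribed close to miRNAs of other families. The hairpin of let-7e lies 94 bases from that of miR-99b and 367 bases from that of miR-125a, and a let-7c hairpin lies 656 bases from that of miR-99a and 46522 bases from a miR-125b hairpin. A let-7a hairpin lies 5211 bases from that of miR-100 and 45114 bases from the other miR-125b hairpin. None of the 5 neighbours passed the test. At an unadjusted p under 0.05 by limma, 0 of 5 were called with U6 and 0 of 5 with the global mean. Of all 227 miRNAs, this threshold called 2.20% as lower and 0.441% as higher with U6. With the global mean it called 5.73% as lower and 3.52% as higher. Beside such small shares, a count of 0 of 5 is not a result about these neighbours. Their log2 changes relative to U6 and to the global mean were 0.05 and 0.40 for miR-99a, 0.08 and 0.43 for miR-99b, -0.44 and -0.09 for miR-100, 0.43 and 0.78 for miR-125a-5p and -0.23 and 0.12 for miR-125b-5p.

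The ratio of let-7e to its neighbours was set apart in FVB 1a for miR-125a-5p. The Ct of let-7e minus that of miR-99b was -1.86 ± 0.34 cycles (SD, n = 8), and 7.10% of all pairs had a lower SD. Against miR-125a-5p the difference was 1.76 cycles in FVB 1a and between -0.86 and 0.41 in the other 7 mice. The SD was 0.81, with 64.9% of all pairs lower, and 0.43 without FVB 1a, with 22.3% lower. let-7c minus miR-99a was 1.17, 0.95, 1.30 and 1.41 cycles in FVB and 1.77, 1.42, 2.27 and 1.50 cycles in MLC/SOD1[G93A] mice. Every MLC/SOD1[G93A] value lay above the FVB values, by as little as 0.01 cycles between FVB 4a and 6a. The means were 1.21 ± 0.20 and 1.74 ± 0.38 cycles (SD, n = 4 each, 2-sided exact permutation p = 0.0286, 0.582 adjusted over all pairs). The change was 0.53 cycles with all mice and 0.36 cycles without mouse 7a. This pair was 1 of the 6 pairs of a member with a neighbour of another family, and 4.91% of all pairs did not overlap. With only 6 pairs, which share members, a count of 1 is too small to be a result about these neighbours. let-7c minus miR-125b-5p and let-7a minus miR-125b-5p had SDs of 0.31 and 0.29 over the 8 mice, and let-7a minus miR-100 had 0.43.

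Measured by the SD over the 8 mice of the Ct minus the mean Ct of the 9 members, the miRNAs outside the family that followed it most closely were miR-26a (0.13 cycles), miR-195 (0.13) and miR-29a (0.14). The other 181 miRNAs measured in all mice had a median of 0.51 cycles and reached 3.25. Of the members themselves, let-7i and let-7d (0.16 each) and let-7g (0.18) followed the family mean most closely and let-7b (0.46) and let-7e (0.51) least, although each member enters that mean. The family mean relative to the global mean was 0.32, 0.84, 0.72 and 0.72 in the FVB mice and 0.72, 0.74, 0.70 and 0.89 in MLC/SOD1[G93A] mice 5a to 8a. FVB 1a was the lowest of the 8 and the groups overlapped.

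Relative to the global mean, let-7g was also among the steadiest miRNAs of the card. Its SD within the groups relative to the global mean was 0.19, the 8th lowest of 190, followed in the family by let-7d (0.22), let-7a (0.24) and let-7i (0.27). let-7e (0.50) and let-7b (0.51) lay above the median of 0.43 over all 190 miRNAs. Relative to U6 let-7g had an SD of 0.84, the members a median of 0.93 and all miRNAs a median of 0.92. The 95% intervals of the member changes reached 1.30 to 1.51 to either side relative to U6 and 0.49 to 0.77 relative to the global mean. These intervals are unadjusted and their widths are not limits of detection, so larger changes could also have been missed with these 8 cards.

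miRNAs of other cells that a cord sample can hold were measured beside the family. Relative to the global mean, the mean level of the 4 microglia and leukocyte miRNAs measured in all mice (of 5 listed) was between -0.09 and 0.86 in FVB and between -0.38 and 0.07 in MLC/SOD1[G93A] mice. For the 2 blood miRNAs (of 3 listed) it was between -0.13 and 1.88 in FVB and between -0.25 and 0.66 in MLC/SOD1[G93A] mice, and for the 2 endothelial ones between 4.56 and 5.09 and between 4.35 and 4.78. The 3 muscle miRNAs had mean levels of 1.41 to 1.97 in FVB and 0.91 to 2.49 in MLC/SOD1[G93A] mice. For the 3 oligodendrocyte miRNAs the mean level was 1.70 to 2.44 in FVB and 1.45 to 1.89 in MLC/SOD1[G93A] mice. For the 4 neuron miRNAs it was 1.93 to 2.20 and 1.84 to 2.28. The 3 caudal Hox miRNAs had 1.58 to 1.87 and 1.33 to 1.82. Each of these lists overlapped between the groups, and their part in the let-7 ratios was not tested.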

How the data were processed

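Ventral lumbar spinal cord RNA (600 ng) of 4 FVB and 4 MLC/SOD1[G93A] mice was reverse transcribed by the authors with Megaplex primers and run on TaqMan Array Mouse MicroRNA Card A. The Ct values, each a score calculated with SDS RQ Manager, were deposited by the authors without normalization and were used here. A second table deposited by the authors holds log2 values, the Ct minus the mean Ct of the 4 U6 wells, and served as an alternative. It matched the Ct table within 0.01 for the members. The third deposited table holds the authors' ratio between the groups and was not used. FVB columns carry the replicate numbers of the labels. Those of the MLC/SOD1[G93A] mice are numbered 5a to 8a, numbers that no label uses, and could be assigned to the group only. A card has no read depth, and the number of cards limits the precision.

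Wells that were undetermined or had a Ct over 35 counted as missing. Tests covered the 227 miRNAs with a value in 3 or more of the 4 mice of both groups. Log2 expression was the mean U6 Ct minus the Ct, or the global mean (over the 190 miRNAs with a value in all 8 mice) minus the Ct. Both groups entered a linear model without covariates in limma 3.58.1 (R 4.3.3), with Benjamini-Hochberg adjustment over the 227 miRNAs. Shares and Ct differences were compared with 2-sided exact permutation tests in Python 3.11.15, the latter adjusted over all pairs of miRNAs. The fit was tested on simulated data with independent noise around values relative to the global mean. That simulation held no shift shared by all miRNAs of a card, so it does not cover such shifts relative to U6. It also capped the noise of the most variable miRNAs and used a change larger than any reported here for a member. All members found by name were reported, with 5 miRNAs of the same gene clusters, marker lists and the 3 miRNAs that followed the family most closely. Members and lists were chosen with earlier results of these data known. Sequences and positions came from RefSeq tables for GRCm38.p6.

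The alternatives were other references (the global mean, snoRNA135, snoRNA202, Y1, their mean and none), Ct limits of 32 and 40, other filters on missing values, the normalized table of the authors, an ordinary linear model, the exact Mann-Whitney test, a PCR efficiency of 1.9 and leaving out each mouse.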

Additional observations from a re-analysis of the deposited data

Results flagged for a closer look

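Of 54 groups of 4 values (each member in each group of mice, relative to U6, relative to the global mean and as a share), 5 held a mouse far from the other 3. Chance gives this for about 1 in 20 groups, and the groups share mice and references. Relative to U6, FVB 1a was far below the other FVB mice for let-7d (-11.53 against -9.77 to -9.53), for let-7e (-9.59 against -7.16 to -7.01) and for miR-98 (-15.14 against -13.52 to -13.24). let-7i was far lower in 7a than in the other MLC/SOD1[G93A] mice, with -9.65 against -7.98 to -7.86 relative to U6 and 2.16 against 2.39 to 2.43 relative to the global mean. The plant miRNA miR159a, a negative control that was not part of any comparison, had a Ct of 29.85 in 7a and was undetermined in the other 7 mice.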

How the results depend on the processing

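Across the settings tried, 221 single-member changes kept sign and side of the threshold and 40 changed sign, none with an adjusted p under 0.05. The Ct limit of 40, other filters, the authors' normalized values, the ordinary linear model and the Mann-Whitney test left the changes almost identical. Signs could hardly turn in those settings, so the count of 221 does not measure stability. The adjusted p of a member relative to U6 and its alternatives ran from 0.104 to 1.0. With the global mean in place of U6, 21 miRNAs in place of 6 had an unadjusted p under 0.05, the medians of the members and of all miRNAs turned from -0.31 to 0.04, and let-7d (0.04), let-7g (0.21) and miR-98 (0.24) changed sign. With snoRNA135, 12 miRNAs (5 lower, 7 higher) passed, both medians were 0.18, and let-7a (0.08), let-7c (0.01), let-7d (0.18), let-7g (0.35), let-7i (0.10) and miR-98 (0.38) changed sign. With snoRNA202, 29 miRNAs passed. With Y1, 67 miRNAs and 4 members passed, the medians were 0.63 for the members and 0.64 for all miRNAs, and let-7a (0.53), let-7b (0.27), let-7c (0.45), let-7d (0.63), let-7g (0.80), let-7i (0.55) and miR-98 (0.83) changed sign. With the mean of the 3 small RNA controls, 20 miRNAs (5 lower, 15 higher) and 1 member passed, both medians were 0.16, and let-7a (0.06), let-7d (0.16), let-7g (0.32), let-7i (0.08) and miR-98 (0.36) changed sign. Without a reference 14 miRNAs passed, of those measured in all samples 3, and by the exact Mann-Whitney test 0. A Ct limit of 32 turned miR-98 to 0.01. Leaving out each mouse, 4 to 37 miRNAs passed relative to U6, 37 of them without FVB 1a, where 4 also had an adjusted p under 0.05 (0 without any other mouse). The median ran from -0.78 (without FVB 1a) to 0.12 (without 7a) for the members and from -0.71 to 0.08 for all miRNAs. The range was -0.84 to 0.01 for let-7a, -1.20 to -0.05 for let-7b, -1.13 to -0.07 for let-7c, -0.78 to 0.12 for let-7d, -0.30 to 0.56 for let-7e, -0.38 to 0.37 for let-7f, -0.63 to 0.17 for let-7g, -0.97 to 0.04 for let-7i and -0.55 to 0.45 for miR-98. Leaving out mice relative to the global mean, chosen after seeing the data, gave 13 to 47 miRNAs, with 47 without FVB 1a and 13 without FVB 3a or 7a. It gave 0 to 1 members (let-7e without FVB 2a, with 3.96% of all miRNAs higher) and a median of -0.02 to 0.14 for the members. The range was -0.17 to 0.05 for let-7a, -0.04 to 0.14 for let-7d and -0.21 to 0.06 for let-7i. Member pairs without overlap numbered 1 to 3 of 36, and 3 (8.33%) without FVB 1a, FVB 2a or 6a, where 17.7%, 8.54% and 7.82% of all pairs did not overlap. At an efficiency of 1.9 the share of miR-98 in FVB mice was 0.468% in place of 0.352%, while the other shares moved by less than their SD. The cause of these shifts was not tested. The groups are of different animals and the labels name no pairing between them, so no paired analysis was run. The MLC/SOD1[G93A] columns also carry numbers that the replicate numbers of the labels do not use, so the replicate block was not run.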
